A study of Mus musculus with 24 samples.

Results

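The interval between 8 and 12 h after activation was examined in CD4+ T cells, by comparing the 3 cultures sequenced at 12 h with the 3 cultures sequenced at 8 h. Each culture condition (Th0, Th1 or Th2) gave 1 pair, so the comparison used 6 of the 24 libraries in the series. Of 22009 named genes, the 10648 with a mean of at least 1 RPKM (reads for a gene, scaled by its transcript length and by the mapped reads of the library) over these libraries were compared. All cells were WT CD4+ T cells from the spleen of adult C57BL/6 mice, purified by negative selection on magnetic beads and pooled from several animals. Every culture was activated with plate-bound anti-CD3 and soluble anti-CD28. Nothing else was added to Th0. IL-12 with an antibody to IL-4 was added to Th1, and IL-4 with antibodies to IL-12 and to IFN-γ was added to Th2. The labels speak of purified CD4+ cells and the study's methods of naive cells. Each condition and time point was sequenced once from 1 pool of cells, so the 3 conditions served as the replicates, and p-values measure the spread between conditions and not between animals.

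Ligation of the T-cell receptor and CD28 takes a resting T cell out of quiescence. Immediate early genes respond within minutes, and over the following hours the cell enlarges, builds ribosomes, takes up nutrients and passes through G1 before it replicates its DNA and divides. Genes that hold the resting state, such as those for the IL-7 receptor and for receptors of lymphoid homing, are shut down on the way. Type I and type II interferons induce antiviral and GTPase genes in T cells, and T cells secrete IFN-γ themselves. Splenic preparations can also carry RNA of other cells, and red cell precursors are abundant in mouse spleen.

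The 6 libraries held between 17512385 and 33017133 mapped reads. These were 25338519 and 29686702 in Th0 at 8 and 12 h, 27505394 and 33017133 in Th1, and 19474405 and 17512385 in Th2. T-cell markers were present at both times. In Th0, Th1 and Th2, Cd4 was at 148, 146 and 111 RPKM at 8 h and 152, 168 and 124 RPKM at 12 h, and Cd3e, a chain of the receptor complex, was at 133, 151 and 185 RPKM and then 155, 164 and 183 RPKM. Neither passed limma's test (adjusted p = 0.395 and 0.503). Of 21 tested genes of the receptor complex and its proximal signalling, only Cd6 passed, with a log2 change of 0.53 ± 0.12 (SE).

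Falls outnumbered rises among the larger changes. With limma on log2(RPKM + 0.5), with the culture condition as a block and Benjamini-Hochberg adjustment over all genes, 878 genes passed an adjusted p under 0.05. Of these, 261 were higher at 12 h (2.45% of the genes tested) and 617 were lower (5.79%). A change of at least 2-fold was shown by 19 of the higher genes (0.178%) and 142 of the lower genes (1.33%), and these 161 are referred to as called. The median change of all genes was 0.01 on the log2 scale. All the called genes moved the same way in the 3 conditions, whereas 26.6% of all genes were higher and 25.4% lower in every condition. The values at 8 and 12 h did not overlap for 14 of the 19 and 130 of the 142 called genes, against 15.1% of all genes. The calls were made on these same libraries with a paired test and a limit on the fold. Like directions and values without overlap thus follow largely from that selection and are no further evidence.

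The numbers of genes that passed depended on which pair was used. Without the Th0 pair 60 genes passed as higher and 215 as lower, without the Th1 pair 14 and 121, and without the Th2 pair 613 and 884. When the pairing by condition was ignored, 1 gene was higher and 20 were lower. The counts of called genes moved less, with 10 higher and 105 lower without Th0, 13 and 105 without Th1, and 44 and 166 without Th2.

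**Figure D1:**
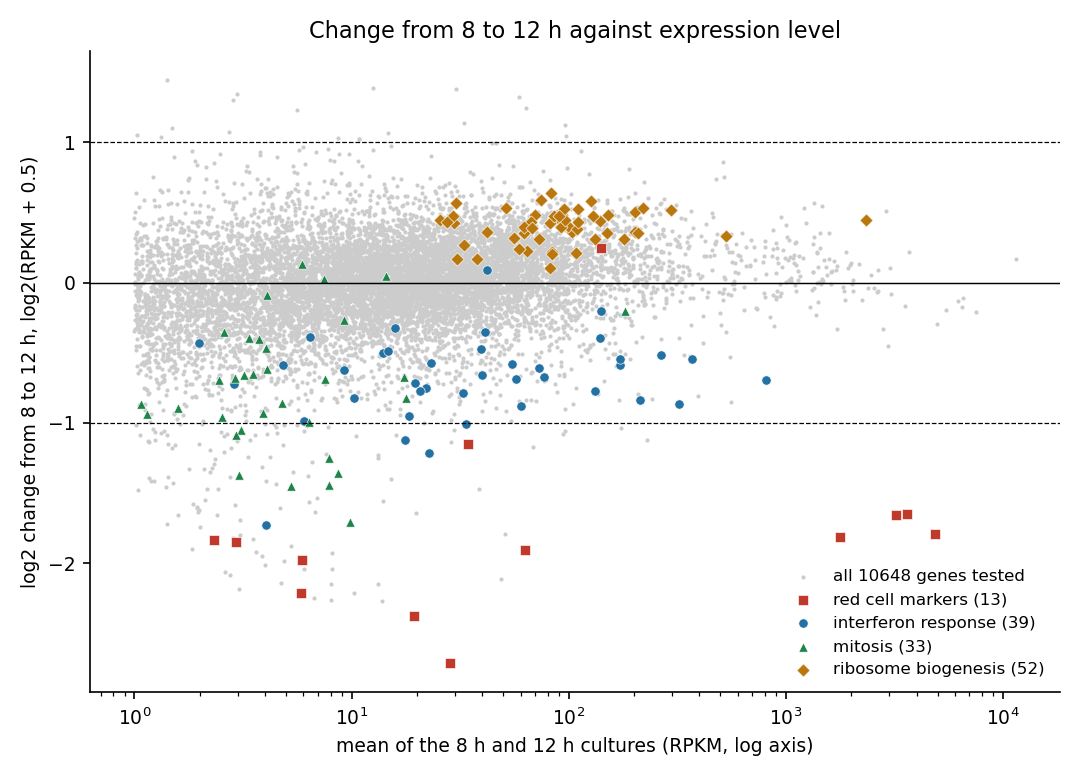
The log2 change from 8 to 12 h (vertical axis) is plotted against the mean RPKM of the 6 libraries (log horizontal axis) for 10648 genes in grey, with the tested members of 4 gene lists in colour and dashed lines at a 2-fold change. Red cell markers lie below the lower line with the exception of Tfrc, interferon response and mitosis genes lie mostly between it and 0, and all 52 ribosome biogenesis genes lie above 0.

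The largest falls were in genes of red blood cells. Of 17 red cell markers 13 could be tested, 12 passed as lower, all of them by at least 2-fold, and the median change was -1.84. The member that did not pass was Tfrc, the transferrin receptor that activated T cells also express (0.25 ± 0.14). The gene with the largest fall was Slc4a1, the anion exchanger band 3 of the red cell membrane (ENSMUSG00000006574.15, chr11:102348824-102366203 of GRCm38). Its expression was 64.2, 51.4 and 33.8 RPKM in Th0, Th1 and Th2 at 8 h and 8.53, 5.36 and 7.21 RPKM at 12 h, a log2 change of -2.71 ± 0.18 (adjusted p = 0.00035). Every 12 h value was thus far below every 8 h value.

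Klf1, a transcription factor of red cell precursors, was at 12, 10.1 and 7.06 RPKM at 8 h and 2.5, 1.34 and 2.46 RPKM at 12 h (-1.98 ± 0.21, adjusted p = 0.00233 in limma's test). In reads this was 465, 425 and 211 at 8 h and 114, 68 and 66 at 12 h. The ratio of 12 to 8 h was 0.209 (95% interval of counting error 0.169 to 0.257) in Th0, 0.133 (0.102 to 0.173) in Th1 and 0.348 (0.26 to 0.461) in Th2. All 12 h values were below all 8 h values. The haemoglobin genes, whose near-identical copies can share reads, had the highest levels. The gene Hbb-bs fell from 10419, 7119 and 5303 to 2896, 1856 and 1754 RPKM, and Hba-a1 from 6683, 4429 and 3609 to 2018, 1316 and 1277 RPKM. Alas2, the enzyme of haem synthesis in red cell precursors, fell by 1.90 on the log2 scale, and Epb42, a protein of the red cell skeleton, fell by 2.21.

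Of the 12 genes with the largest falls 9 were not in this list, and most have a known role in red cells. Rhd is a blood group antigen of the Rh complex and Kel the Kell antigen, Aqp1 is the water channel of red cells, Car2 a carbonic anhydrase, Ank1 the ankyrin that anchors band 3, and Hemgn and Trim10 are expressed in erythroid cells. The others were Tmcc2 and Nxpe2. Their log2 changes were between -2.11 for Car2 and -2.27 for Rhd, and each fell in all 3 conditions. Car2 had the highest level among these genes, with 107, 78.4 and 55 RPKM at 8 h and 21.7, 15 and 16.5 RPKM at 12 h.

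Haemoglobin genes took 4.66%, 3.15% and 2.51% of the summed RPKM in Th0, Th1 and Th2 at 8 h and 1.37%, 0.885% and 0.836% at 12 h. They took 6.25% and 6.86% in the 2 libraries of resting cells and at most 0.0333% at 24 h, so 8 to 12 h was a stretch of a longer decline. The study's methods include lysis of red cells before purification. In bulk RNA, fewer cells of a type and less RNA per cell cannot be told apart. To see how many of the called falls ran along with the red cell list elsewhere, each gene was compared with the median of the list over the 14 libraries of the time course outside 8 and 12 h. Among the 142 called falls, 100 had a Pearson correlation of at least 0.95 with the list, and 88 of the 130 that are not in the list did, against 354 of the 10648 genes tested (3.32%). These libraries share their cells, and many genes fall over the whole course, so this is a description.

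Some markers of other cells of the spleen fell as well, by less. Of 6 tested platelet markers 5 passed as lower (median -0.89). Ppbp, a platelet chemokine, was at 10, 8.82 and 6.09 RPKM at 8 h and 4.93, 3.37 and 2.91 RPKM at 12 h (-1.06 ± 0.13), while Gp9 and Pf4 both had a log2 change of -1.08. Of 15 NK and CD8 T-cell markers 5 passed as lower (median -0.63), among them the NK receptor gene Klra8 (-1.01 ± 0.15) and Klrd1 (-0.87 ± 0.16). Macrophage markers gave 2 of 11 as lower, C1qa at -1.01 and Ctss at -0.59, and B cell markers gave 2 of 15, Cd79b at -0.71 and Cd79a at -0.59. Among all genes tested 5.79% passed as lower, so 2 genes in lists of this size say little about macrophages or B cells. No neutrophil or dendritic cell marker passed, among 8 and 5 tested. The summed level of the 18 B cell markers in the table was 278, 183 and 233 RPKM at 8 h and 236, 159 and 214 RPKM at 12 h. Another 7 of the called falls were Jchain and immunoglobulin genes, and near-identical copies of the latter can share reads. These calls near 2-fold depended on single pairs. Gp9 was not called without Th0 (-0.92) or Th1 (-1.12), C1qa without Th0 (-0.97), Th1 (-1.12) or Th2 (-0.95), Klra8 without Th0 (-0.90) or Th2 (-0.96), and Pf4 (-0.87) and Ppbp (-0.95) without Th1.

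**Figure D2:**
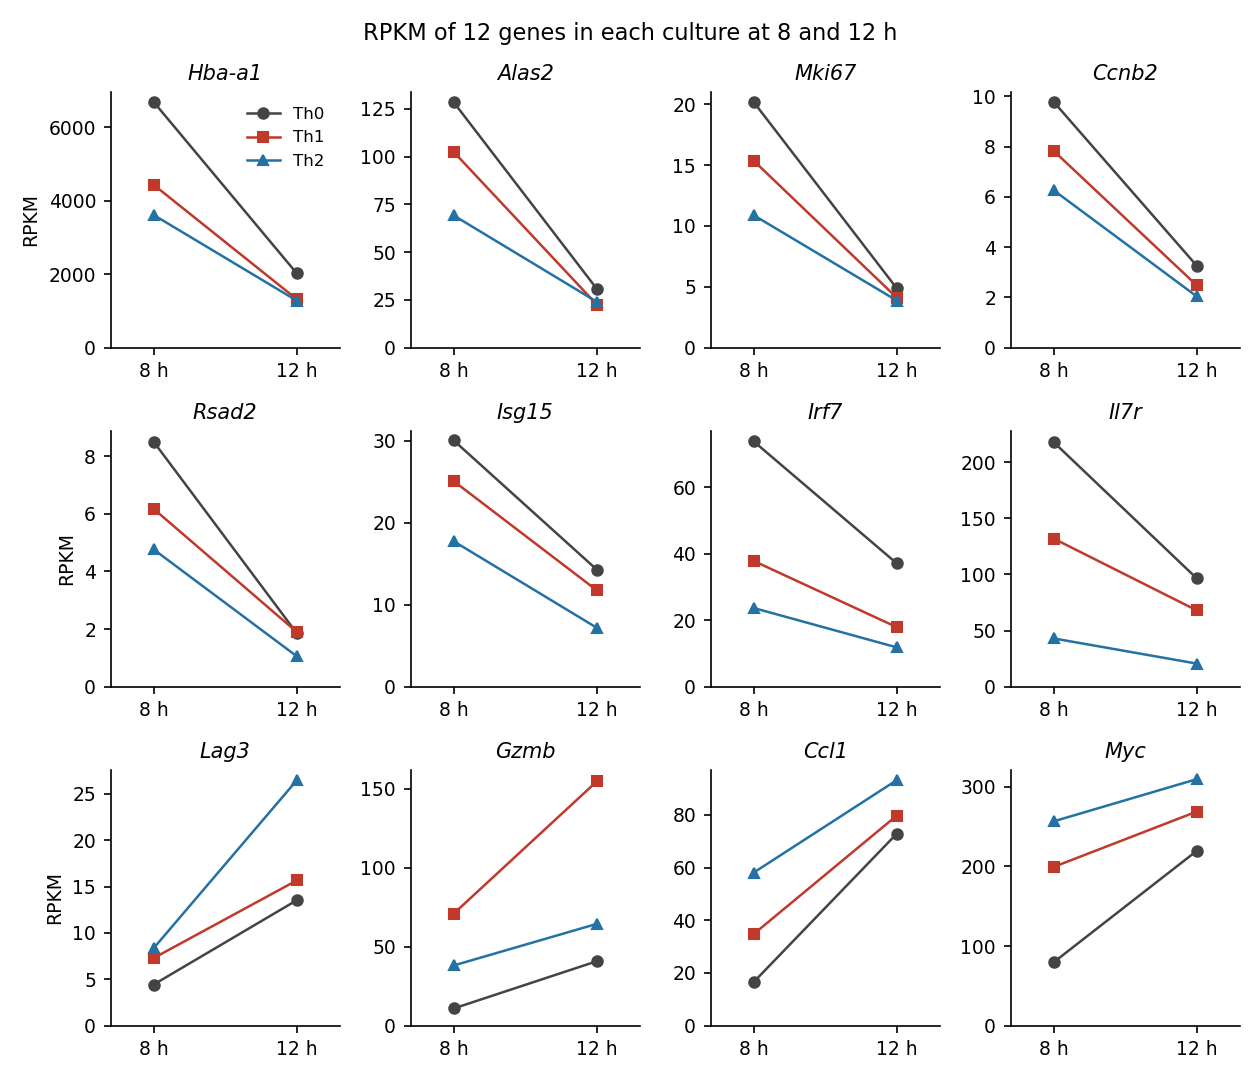
RPKM (vertical axis from 0) of 12 genes at 8 and 12 h, with 1 line for each culture condition. Hba-a1, Alas2, Mki67, Ccnb2, Rsad2, Isg15, Irf7 and Il7r fell in each culture, Lag3, Gzmb and Ccl1 rose in each, and Myc, which did not pass the test, went from 79.5 to 220 RPKM in Th0 and from 257 to 310 RPKM in Th2.

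Genes of mitosis formed the second group of falls. Of 33 tested, 22 passed as lower and none as higher, 8 fell by at least 2-fold, and the median change was -0.69 (-0.95, -0.75 and -0.49 in the order Th0, Th1, Th2). The count was 7 without the Th0 pair, 7 without the Th1 pair and 23 without the Th2 pair. It was 5 with no filter on low genes and 0 without the pairing. Mki67, the proliferation antigen Ki-67 (ENSMUSG00000031004.8, chr7:135689784-135716361), was at 20.2, 15.4 and 10.9 RPKM at 8 h and 4.87, 4.1 and 3.87 RPKM at 12 h (-1.70 ± 0.14, adjusted p = 0.000721). Ccnb2, a B-type cyclin that drives entry into mitosis, was at 9.78, 7.83 and 6.26 RPKM and then 3.26, 2.48 and 2.04 RPKM (-1.45 ± 0.12). Ccna2, cyclin A2, was at 15.4, 10.4 and 9.5 RPKM and then 4.18, 3.88 and 3.71 RPKM (-1.44 ± 0.14). For all of these the level was highest in Th0 and lowest in Th2 at both times.

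The spindle gene Nusap1 fell by 1.37, Birc5 (survivin, of the chromosomal passenger complex) by 1.36 and Ube2c, which acts with the anaphase-promoting complex, by 1.25 on the log2 scale. Top2a, topoisomerase II, went from 31.6, 22.4 and 15.6 to 14.6, 11.7 and 11.1 RPKM. Cdk1 passed narrowly in limma's test (-0.99 ± 0.25, adjusted p = 0.0498), not without the Th0 or the Th1 pair, and its step was -1.35 and -1.50 in Th0 and Th1 and -0.12 in Th2. The list had its lowest medians of the time course at 12 h, closely followed by 16 h. Its median difference from resting cells was between -2.62 and -2.81 at that time and between -1.27 and -0.85 at 24 h, when 32 of the 33 genes were higher than at 16 h. Over the same interval the red cell markers also fell, and the part that other cells had in the fall of the mitosis genes was not tested. Over the 14 other libraries, 12 of the 142 called falls had a correlation of at least 0.95 with the median of the mitosis list. Among the 134 called falls that are not in the list 7 did, against 41 of 10648 genes. Ccna2 had 0.992 with the mitosis list and 0.676 with the red cell list, Mki67 had 0.956 and 0.854, and Ccnb2 had 0.835 and 0.968.

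DNA replication genes did not move with those of mitosis. Of 49 tested, 4 passed as higher and 3 as lower, with a median of 0.13. Among all genes tested 2.45% passed as higher and 5.79% as lower, so the count of falls was near that share. The rises were in 3 subunits of the MCM helicase, which is loaded at origins in G1, and in a clamp loader subunit. Mcm3 was at 19.1, 19.8 and 24.6 RPKM at 8 h and 29.4, 33.2 and 43 RPKM at 12 h (0.71 ± 0.10, adjusted p = 0.00764). Mcm5 rose from 21.8, 23.9 and 33.9 to 30.9, 34.7 and 53.9 RPKM, Mcm2 had a log2 change of 0.54 and Rfc4 one of 0.54. In contrast, Rrm2, the regulated subunit of ribonucleotide reductase, fell from 28.2, 21.8 and 16.9 to 8.76, 7.82 and 7.37 RPKM (-1.40 ± 0.12), Cdc6, a licensing factor, fell by 0.87 and Tk1, thymidine kinase, fell by 0.82. Without the Th1 pair no gene of the list passed as higher and 1 passed as lower. The median step was -0.02, 0.10 and 0.32 for Th0, Th1 and Th2, and 23, 33 and 41 of the 49 genes were higher at 12 h. The median difference of the list from resting cells was -0.80, -0.86 and -0.84 at 8 h in Th0, Th1 and Th2, -0.69, -0.63 and -0.40 at 12 h, and 0.88, 1.00 and 1.32 at 24 h.

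Regulators of G1 also split. Of 24 tested, 8 passed as lower and 1 as higher. The falls included E2f2 (-1.16 ± 0.12) and E2f8 (-1.15 ± 0.19), members of the E2F family of cell cycle factors, and 3 of the 4 tested inhibitors of cyclin-dependent kinases. Cdkn2c, p18, was at 4.06, 3.44 and 3.2 RPKM and then 1.68, 1.11 and 1.56 RPKM (-1.07 ± 0.16), Cdkn2d, p19, fell by 0.83 and Cdkn1b, p27, fell by 0.57. Tfdp1, the partner of the E2F factors, rose by 0.51 ± 0.12. Ccne1, cyclin E1, did not pass (-0.15 ± 0.20), and neither did Cdk4, at 96.1, 151 and 203 RPKM and then 182, 208 and 236 RPKM (adjusted p = 0.0575). The call of Cdkn2c was lost without the Th1 pair (-0.95) and that of E2f8 without the Th1 (-1.25) or the Th0 pair (-0.98). Over the 14 libraries outside 8 and 12 h, Cdkn2c had a correlation of 0.914 with the red cell list and 0.881 with the mitosis list. These were 0.879 and 0.911 for E2f2, and 0.795 and 0.974 for E2f8. The part of other cells in these falls was not tested.

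The third group of falls was the interferon response. Of 39 genes tested, 32 passed as lower and none as higher, 38 were lower in every condition, and the median change was -0.66 (-0.83, -0.57 and -0.59 in the order Th0, Th1, Th2). The count was 15 without the Th0 pair, 6 without the Th1 pair and 31 without the Th2 pair. It was 12 with no filter on low genes, 10 in a fit of all 18 cultures and 0 without the pairing. The levels differed greatly between conditions, since the summed RPKM of the 42 genes of the list in the table in the order Th0, Th1, Th2 was 7571, 4248 and 1325 at 8 h and 4322, 2778 and 938 at 12 h. The sum was lower at 12 h in Th2, which held anti-IFN-γ, and in Th0 and Th1, which did not. The part of IFN-γ in the fall was not tested.

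Rsad2, which encodes the antiviral protein viperin (ENSMUSG00000020641.16, chr12:26442746-26456452), had the largest fall of the list, from 8.5, 6.17 and 4.76 RPKM to 1.85, 1.9 and 1.05 RPKM (-1.73 ± 0.15, adjusted p = 0.000969). Isg20, an RNA exonuclease, was at 38.7, 33.1 and 24 RPKM and then 18.7, 12 and 10.2 RPKM (-1.22 ± 0.11). Isg15, a ubiquitin-like modifier, was at 30, 25.1 and 17.7 RPKM and then 14.3, 11.7 and 7.18 RPKM (-1.12 ± 0.10). Over the 14 libraries outside 8 and 12 h, Rsad2 and Isg20 had correlations of 0.979 and 0.981 with the median of the red cell list, against 0.729 and 0.756 with that of the interferon list, while Isg15 had 0.856 and 0.889. None of the 142 called falls reached 0.95 with the interferon list, against 36 of 10648 genes. The part of other cells in these falls was not tested. In each of these genes all 12 h values were below all 8 h values, and the 8 h values stood in the order Th0, Th1, Th2.

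Irf7, the factor that amplifies the type I response, was at 73.9, 37.9 and 23.7 RPKM and then 37.1, 17.9 and 11.8 RPKM, so it fell in each condition although the groups overlapped (-1.01 ± 0.10). It lay at the 2-fold limit and was not called without the Th1 pair (-0.98). The GTPase gene Gbp2 was abundant, with 1996, 969 and 185 RPKM at 8 h and 992, 580 and 147 RPKM at 12 h (-0.69 ± 0.14), and Gbp4 fell by 0.84, Iigp1 by 0.77 and Igtp by 0.54. Of the 9 sensors and regulators 7 passed. They included Stat2 (-0.57) and Irf9 (-0.47), which act together below the type I receptor, and Irf1, at 519, 331 and 100 RPKM and then 334, 236 and 75 RPKM (-0.51). Ifngr1, the ligand-binding chain of the IFN-γ receptor, fell from 393, 205 and 116 to 173, 96.5 and 64.9 RPKM (-1.03 ± 0.11), and was not called without the Th0 pair (-0.96).

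Of the 39 interferon genes 7 did not pass. Bst2, tetherin, was at 46.4, 44 and 32.7 RPKM and then 46, 46.5 and 37.7 RPKM (0.09 ± 0.10), while Ifih1 (-0.32) and Psmb8 (-0.20) were lower in every condition without passing. Of the Ifitm genes, which encode small membrane proteins that restrict virus entry, 3 of 7 could be tested and none passed. Ifitm1 was at 6.48, 8.22 and 4.4 RPKM and then 6.11, 6.29 and 2.6 RPKM, Ifitm2 at 6.11, 7.19 and 5.65 and then 6.5, 13.1 and 4.64 RPKM, and Ifitm3 at 8.09, 9.76 and 2.65 and then 4.52, 8.13 and 2.53 RPKM. Ifng itself did not fall. It was at 19.1, 414 and 62.6 RPKM at 8 h and 46.2, 451 and 71.4 RPKM at 12 h (0.52 ± 0.21, adjusted p = 0.146).

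The promoters of the interferon and mitosis genes are shown for the letters they share. In RefSeq promoters of GRCm38.p6, read on both strands over the 250 bases before the start, TTTCNNTTT, the core of the interferon-stimulated response element, was found in 19 of 30 tested interferon genes with an entry (63.3%), in 16.2% of the 456 genes that passed as lower and in 7.06% of all 8112 genes. TTTGAA, the core of the cell cycle homology region of late cell cycle genes and chosen after the values were seen, was found in 10 of 27 mitosis genes (37.0%), in 16.4% of those that passed as lower and in 10.7% of all. In the 110 called falls with an entry the shares were 10.0% for TTTCNNTTT and 17.3% for TTTGAA. Letters of E2F sites, also looked for, were in 1 of 27 mitosis genes (3.70%) and in 3.27% of all. Further motifs were looked for and are not given. The 150 bases before the start are printed 5′ to 3′ in the direction of the gene, with matches in capitals, first for 4 interferon genes and then for 3 mitosis genes.
Isg15 (chr4:156200819-156200968, minus strand): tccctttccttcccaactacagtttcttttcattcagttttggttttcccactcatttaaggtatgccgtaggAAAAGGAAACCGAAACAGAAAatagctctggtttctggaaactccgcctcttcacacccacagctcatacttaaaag
Rsad2 (chr12:26456453-26456602, minus strand): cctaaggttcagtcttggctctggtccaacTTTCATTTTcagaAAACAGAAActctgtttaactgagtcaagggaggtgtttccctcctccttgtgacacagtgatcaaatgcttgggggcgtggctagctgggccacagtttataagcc
Ifit1 (chr19:34640739-34640888, plus strand): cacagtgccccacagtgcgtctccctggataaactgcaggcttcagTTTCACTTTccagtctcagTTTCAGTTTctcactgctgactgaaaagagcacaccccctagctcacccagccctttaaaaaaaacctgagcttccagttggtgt
Isg20 (chr7:78913274-78913423, plus strand): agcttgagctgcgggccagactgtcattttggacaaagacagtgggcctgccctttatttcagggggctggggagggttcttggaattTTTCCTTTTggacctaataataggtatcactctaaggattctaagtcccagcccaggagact
Mki67 (chr7:135716380-135716529, minus strand): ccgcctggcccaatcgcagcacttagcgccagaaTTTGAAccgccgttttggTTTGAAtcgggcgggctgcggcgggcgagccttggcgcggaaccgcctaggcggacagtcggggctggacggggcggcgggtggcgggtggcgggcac
Cdk1 (chr10:69352913-69353062, minus strand): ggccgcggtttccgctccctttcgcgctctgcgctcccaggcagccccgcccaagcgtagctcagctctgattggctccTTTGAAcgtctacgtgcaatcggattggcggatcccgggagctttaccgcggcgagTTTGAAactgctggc
Ube2c (chr2:164769779-164769928, plus strand): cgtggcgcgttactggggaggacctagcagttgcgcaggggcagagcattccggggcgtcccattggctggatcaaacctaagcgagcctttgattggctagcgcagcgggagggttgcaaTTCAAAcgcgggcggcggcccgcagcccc
The Isg15 promoter holds 3 overlapping matches that form 1 run, Rsad2 and Ifit1 hold 2 each and Isg20 holds 1, while Mki67 and Cdk1 hold 2 matches of the mitosis letters and Ube2c holds 1. A match is a run of letters and not a known site. Ifit1, whose protein binds viral RNA, fell with Isg15 and Rsad2, from 21.9, 12.9 and 4.78 RPKM to 10.8, 8.79 and 2.21 RPKM (-0.82 ± 0.13).

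**Figure D3:**
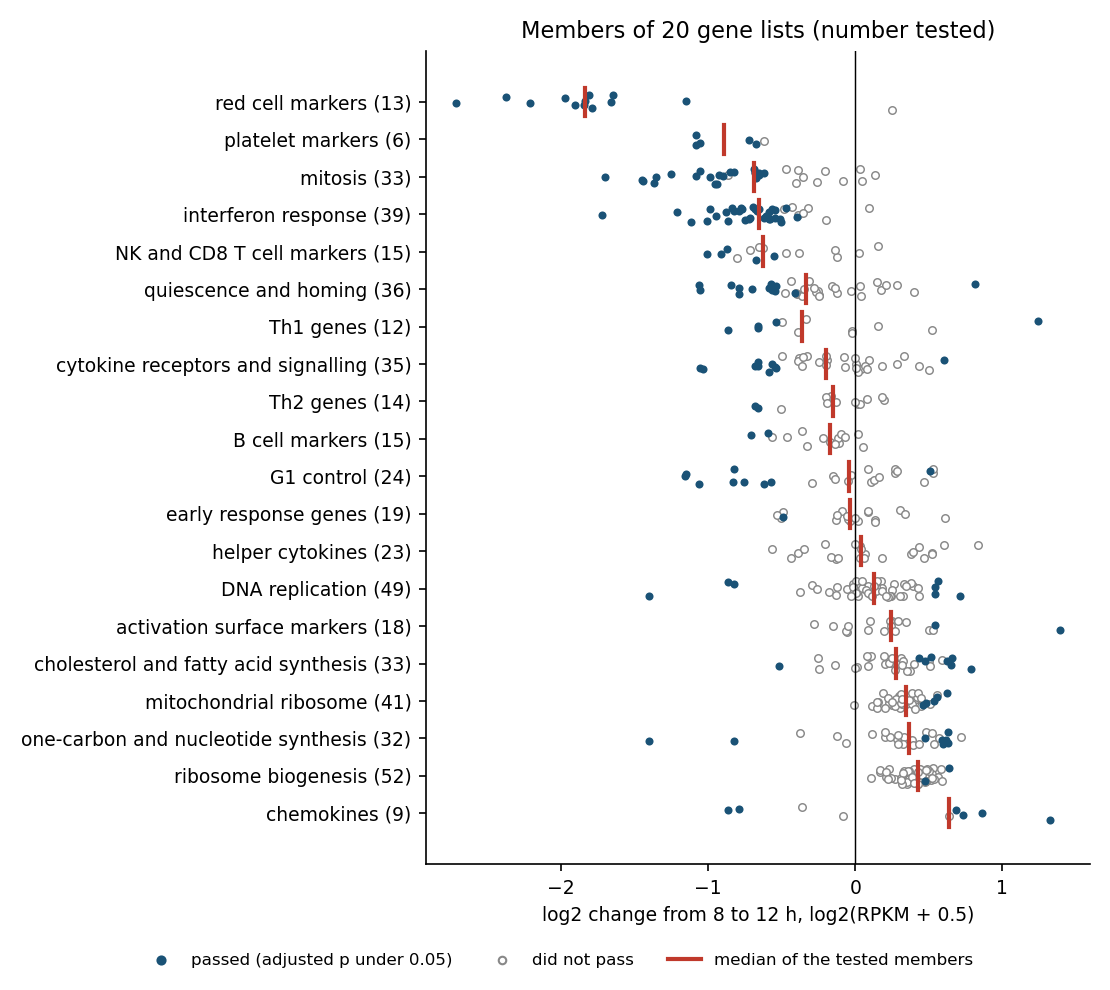
Each point is a tested gene of the list named on the left, at its log2 change from 8 to 12 h, filled where it passed an adjusted p under 0.05 and open where it did not, and the red bars are medians. The medians of the 20 lists run from -1.84 for red cell markers to 0.64 for chemokines, and all members of the ribosome biogenesis list lie to the right of 0, 2 of 52 having passed.

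Several genes of quiescence and homing fell, with an exception. Of 36 tested, 12 passed as lower and 1 as higher (median -0.33). The counts of falls were 6 without the Th0 pair, 1 without the Th1 pair and 14 without the Th2 pair. Il7r, the receptor for the survival cytokine IL-7, was at 218, 132 and 43 RPKM at 8 h and 96.5, 68 and 20.6 RPKM at 12 h (-1.06 ± 0.10, adjusted p = 0.00143). S1pr1, the receptor by which lymphocytes leave lymph nodes, was at 117, 76.8 and 35 RPKM and then 60.9, 43.8 and 19.9 RPKM (-0.85 ± 0.10). Both were highest in Th0 and lowest in Th2 at each time, so their groups overlapped while every pair fell.

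Cxcr4, a chemokine receptor, fell by 0.79 on the log2 scale, Klf2, the factor that maintains S1pr1, by 0.58, and Txnip, which restrains glucose uptake, by 0.70. Ccr7, the chemokine receptor that guides T cells into lymph nodes, moved the other way. It was at 150, 148 and 117 RPKM at 8 h and 216, 245 and 267 RPKM at 12 h (0.81 ± 0.14, adjusted p = 0.0139), and did not pass without the Th1 pair. The stress genes Hspa1a and Hspa1b, which encode near-identical inducible HSP70 proteins and can share reads, fell by 1.32 and 1.38, and Gadd45a by 1.28.

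Cytokine receptors gave 5 falls among 18 tested, without a rise. Besides Il7r and Ifngr1, Il4ra, the receptor chain shared by IL-4 and IL-13, was at 202, 44.2 and 114 RPKM and then 108, 36.4 and 64.4 RPKM (-0.66 ± 0.14). Of the signal transducers of this list, Stat5a, which acts below IL-2, rose from 69.9, 45.2 and 89.3 to 90.1, 72.4 and 154 RPKM (0.61 ± 0.11), while Stat4, which acts below IL-12, fell by 0.54 (adjusted p = 0.0494).

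The called rises were few, and 4 of the 19 were members of a gene list. Lag3, an inhibitory receptor that binds MHC class II (ENSMUSG00000030124.2, chr6:124904361-124911705), was at 4.43, 7.28 and 8.35 RPKM at 8 h and 13.5, 15.7 and 26.5 RPKM at 12 h (1.39 ± 0.13, adjusted p = 0.00154). Every 12 h value was above every 8 h value, and the call was kept with any pair left out. It was the member of 18 activation surface markers with the largest rise, and only Tnfrsf4 (OX40) passed beside it, at 0.54 ± 0.13. The early marker Cd69 was at 243, 477 and 339 RPKM and then 366, 413 and 313 RPKM, and Il2ra (CD25) at 97.8, 156 and 212 and then 174, 245 and 218 RPKM. Neither passed.

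Chemokines had the highest median of the lists (0.64), with 4 of 9 passing as higher and 2 as lower. Ccl1, which attracts cells through CCR8, was at 16.5, 34.7 and 58.1 RPKM and then 72.9, 79.7 and 93.2 RPKM (1.32 ± 0.23, adjusted p = 0.0158). Its log2 steps were 2.11, 1.19 and 0.68, and it was not called without the Th0 (0.93) or the Th1 pair (1.39). Xcl1, lymphotactin, rose from 203, 550 and 390 to 570, 791 and 580 RPKM, Ccl3 by 0.74 and Ccl22 by 0.68. The falls were Ccl5 (-0.86), which is abundant in memory T cells and NK cells, and the interferon-induced Cxcl10, at 41.6, 82.4 and 4.21 RPKM and then 19.3, 45.9 and 2.98 RPKM (-0.79 ± 0.14).

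Gzmb, the cytotoxic protease granzyme B, was at 10.9, 70.9 and 38.1 RPKM and then 40.8, 155 and 64.5 RPKM (1.24 ± 0.19). It rose in each culture but was highest in Th1 at both times, and it was not called without the Th0 (0.94) or the Th1 pair (1.31). Bcl2l1, which encodes the survival protein BCL-XL, rose from 38, 70.2 and 87.5 to 107, 123 and 157 RPKM (1.04 ± 0.15). It was not called without Th0 (0.82), and was the only member of 12 tested BCL2 family genes to pass. Hdac7, a class IIa histone deacetylase of T cells, rose from 36.1, 67.8 and 81.2 to 103, 125 and 163 RPKM (1.13 ± 0.13), and was not called without Th0 (0.94). Cd200, an inhibitory ligand, rose by 0.94 ± 0.14.

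Other called rises were Lad1, which encodes ladinin and went from 10.3, 12.6 and 27.9 to 33.9, 30.3 and 66.6 RPKM, and Fscn1, the actin bundler fascin, from 1.26, 1.5 and 1.53 to 3.82, 4.76 and 4.25 RPKM. Pdgfb, a growth factor, rose by 1.23 and Crabp2, which carries retinoic acid, by 1.14. Crabp2 was not called without the Th0 pair (0.70) or the Th1 pair (1.28). The largest rise of all was in a low gene of the isoprenoid pathway, Idi2, at 0.141, 0.551 and 1.01 RPKM and then 1.98, 2.03 and 2.77 RPKM, or 8, 34 and 44 reads and then 132, 150 and 109 reads (1.45 ± 0.21). Idi2 reached the filter of a mean of 1 RPKM only through its 12 h values, and such a filter favours low genes that change. Adh1 and Fam71b, also low, were called with all pairs (1.10 and 1.07). Adh1 was not called without Th0 (1.25), Th1 (1.21) or Th2 (0.85), and Fam71b not without Th0 (0.99) or Th1 (1.05).

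Some genes of sterol synthesis rose, with like steps in the 3 conditions. Of 33 genes of cholesterol and fatty acid synthesis, 7 passed as higher and 1 as lower, and the median step was 0.31, 0.22 and 0.28 in Th0, Th1 and Th2. All 7 were enzymes of the path from acetyl-CoA to cholesterol. Lss, lanosterol synthase, was at 4.61, 6.92 and 7.91 RPKM at 8 h and 9.18, 11 and 14.2 RPKM at 12 h (0.79 ± 0.11, adjusted p = 0.00861), and Hmgcs1, HMG-CoA synthase, at 27.7, 26.1 and 29.3 and then 38.1, 45.2 and 45.8 RPKM (0.63 ± 0.11). Idi1 rose by 0.66, Fdft1 by 0.51, Sqle by 0.47 and Fdps by 0.43. The gene that fell was Mylip (-0.52), whose product degrades the LDL receptor. The count of rises was 4 without the Th0 pair, none without the Th1 pair and 6 without the Th2 pair.

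Genes of growth had their larger steps in Th0. Among 52 tested genes of ribosome biogenesis, all were higher at 12 h in Th0 and in Th1 and 43 in Th2, but only 2 passed. That count was near the share of all genes tested that passed as higher (2.45%). The median step of the 52 genes in the order Th0, Th1, Th2 was 0.83, 0.26 and 0.09. With the sign of the step kept, it was highest in Th0 for 51 of them (98.1%), against 38.0% of all genes. Ubtf, the factor of RNA polymerase I, passed with 47.3, 66.3 and 82.4 RPKM and then 84.3, 97.3 and 119 RPKM (0.64 ± 0.11), as did Polr1c, a subunit of that polymerase (0.48 ± 0.11). Fbl, fibrillarin, was at 107, 198 and 250 RPKM and then 197, 276 and 292 RPKM and did not pass (adjusted p = 0.0526). The count was 23 without the Th2 pair, 1 without Th0 and none without Th1.

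The cultures were at different levels when the interval began. The summed RPKM of the 52 genes was 4258, 7269 and 8715 in Th0, Th1 and Th2 at 8 h and 7434, 8978 and 9585 at 12 h, so Th0 at 12 h was near the value of Th1 at 8 h. The resting libraries held 2643 and 2534 RPKM. Myc, the factor that drives ribosome synthesis, was at 79.5, 199 and 257 RPKM and then 220, 269 and 310 RPKM (0.72 ± 0.21, adjusted p = 0.0737). Its log2 step was 1.46 in Th0 and 0.27 in Th2. With 1 library for each condition and time, no difference between the steps of 2 conditions could be tested.

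Other growth lists showed the same order, Th0 before Th1 and Th2. Of 32 genes for nucleotides and single-carbon units, 6 passed as higher, with Gart, Pfas and Adsl of purine synthesis at 0.63, 0.63 and 0.59, Impdh2 at 0.60, Dhodh of pyrimidine synthesis at 0.62 and Phgdh of serine synthesis at 0.47, and 2 passed as lower, Rrm2 and Tk1. The median step was 0.71, 0.30 and 0.20 in Th0, Th1 and Th2. Of 20 glycolytic genes 3 passed, Hk2 (3.65, 10.4 and 13.2 RPKM and then 12.8, 17.3 and 18.1 RPKM), Tpi1 (0.68) and Gapdh (0.57). The chaperonin gene Hspd1, from 194, 366 and 565 to 467, 624 and 641 RPKM (adjusted p = 0.0493), was the 1 that passed among 26 protein folding genes. That count was near the 2.45% of all genes tested that passed as higher.

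Mitochondrial ribosome genes had more even steps, with 5 of 41 passing and median steps of 0.53, 0.25 and 0.28, and 38 of 42 genes of oxidative phosphorylation were higher in every condition, of which 1 passed. Cytosolic ribosomal protein genes differed from these lists in that Th2 had the largest median step (0.08, 0.00 and 0.21), and 2 of 59 passed. Of 31 proteasome genes 30 were higher in every condition, and 1 passed. Among all genes tested 26.6% were higher in every condition and 2.45% passed as higher. The counts that passed were thus near that share, except in the mitochondrial ribosome list.

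**Figure D4:**
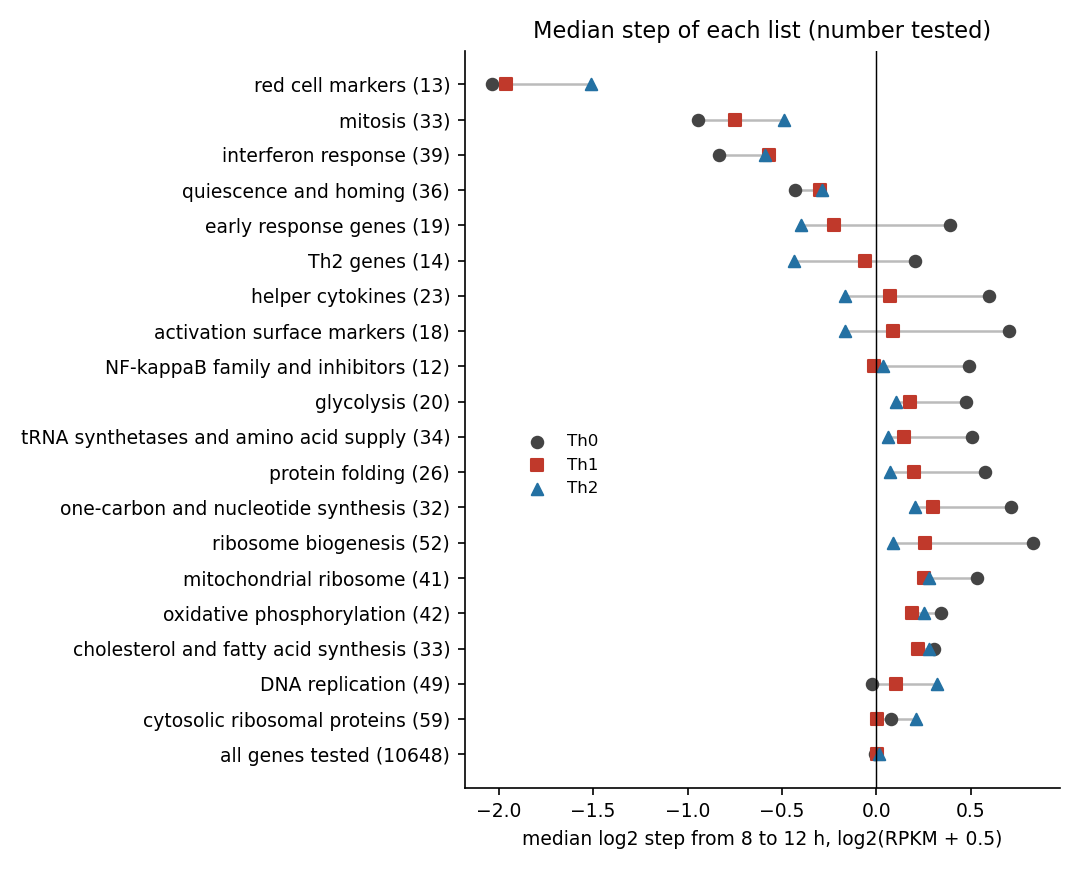
Median log2 step from 8 to 12 h of the tested members of each list (horizontal axis) in Th0, Th1 and Th2, with the number of genes in brackets and the median over all genes in the last row. In the growth lists Th0 lies to the right, as for ribosome biogenesis at 0.83, 0.26 and 0.09, whereas the 3 conditions lie close together for cholesterol and fatty acid synthesis.

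The step was larger in Th0 over the whole transcriptome. The median absolute log2 step of the 10648 genes in Th0, Th1 and Th2 was 0.30, 0.19 and 0.18, and 205 genes rose and 257 fell at least 2-fold in Th0, against 23 and 169 in Th1 and 34 and 148 in Th2. For 54.2% of genes the largest absolute step was in Th0. Across genes, which are not independent replicates, the steps of Th0 and Th1 had a Pearson correlation of 0.714, those of Th1 and Th2 of 0.576 and those of Th0 and Th2 of 0.466.

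Early response genes were mostly higher at 12 h in Th0 and mostly lower in Th1 and Th2. The median step of 19 such genes was 0.39, -0.23 and -0.40 for Th0, Th1 and Th2. At 12 h 15 were higher in Th0, 2 in Th1 and 4 in Th2, and only Jun passed as lower in the paired test (-0.49 ± 0.11). Nr4a1, an orphan nuclear receptor that follows signal strength at the T-cell receptor, was at 304, 577 and 783 RPKM at 8 h and 552, 431 and 446 RPKM at 12 h. Its 8 h values were spread widely and its 12 h values lay within a narrow range. Nr4a2 was at 35.9, 72.2 and 114 RPKM and then 78.8, 61.4 and 73.5 RPKM, and Egr1 at 49.8, 94.9 and 116 RPKM and then 81.6, 75.2 and 73.7 RPKM. In these genes the order of the conditions at 8 h, lowest in Th0 and highest in Th2, was gone or reversed at 12 h.

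No cytokine gene passed, among 23 tested. Il2 had the largest change, from 17.7, 56.9 and 53.8 to 66.1, 75 and 63.5 RPKM (0.84 ± 0.28, adjusted p = 0.1), with a ratio of 3.74 (95% interval of counting error 3.39 to 4.12) in Th0 and 1.18 (1.09 to 1.28) in Th2. Tnf was at 51.5, 106 and 101 RPKM and then 131, 118 and 107 RPKM. The medians of the 23 genes were 0.60, 0.07 and -0.17 in Th0, Th1 and Th2.

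The defining factors of T helper fate did not pass, while several other Th1 and Th2 genes did. Tbx21, which encodes the Th1 factor T-bet, was at 11, 20.2 and 8.48 RPKM and then 15, 21.9 and 5.37 RPKM (-0.02 ± 0.19), and Gata3, the Th2 factor, at 16.7, 8.18 and 24.7 and then 14.9, 8.4 and 18.8 RPKM (-0.17 ± 0.12). Neither passed, and the order of the conditions was kept. Il4 was at 9.39, 23.1 and 22.8 RPKM and then 13.3, 24.3 and 11.7 RPKM (-0.13 ± 0.23). Of 12 Th1 genes tested, Gzmb passed as higher, and 4 passed as lower, Ccl5, Il18r1 (-0.66) and Stat4 among them. Of 14 Th2 genes, Il4ra and Il1rl1 (-0.68), the receptor for IL-33, passed as lower. Among 15 transcription factors of activation none passed, with Irf4 at 139, 234 and 298 RPKM and then 241, 320 and 351 RPKM (adjusted p = 0.052) and Irf8 at 76.1, 150 and 54.5 RPKM and then 98.8, 157 and 43.1 RPKM (0.04 ± 0.14).

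Libraries outside the interval moved the same way. Between the 3 cultures at 4 h and the 3 at 16 h, which share no library with the comparison of 8 and 12 h, 29.6% of 10847 genes passed as higher at 16 h and 26.9% as lower. Of the 19 genes called higher at 12 h 18 were tested here, and 17 passed as higher. All 142 genes called lower passed as lower. Among the genes that passed without a limit on the fold, 258 of 260 passed as higher and 599 of 617 as lower. These cultures came from the same pool of cells, so the result speaks for the libraries and not for further animals.

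The lists parted after 16 h. The medians of the interferon and red cell lists fell further from 16 to 24 h (-0.80 and -0.64), those of mitosis and DNA replication rose by 1.32 and 1.17, and that of ribosome biogenesis stayed at -0.02. Of the 261 genes that passed as higher from 8 to 12 h, 178 (68.2%) were higher at 24 h than at 16 h, and of the 617 that passed as lower 121 (19.6%) were, against 42.2% of all genes.

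**Figure D5:**
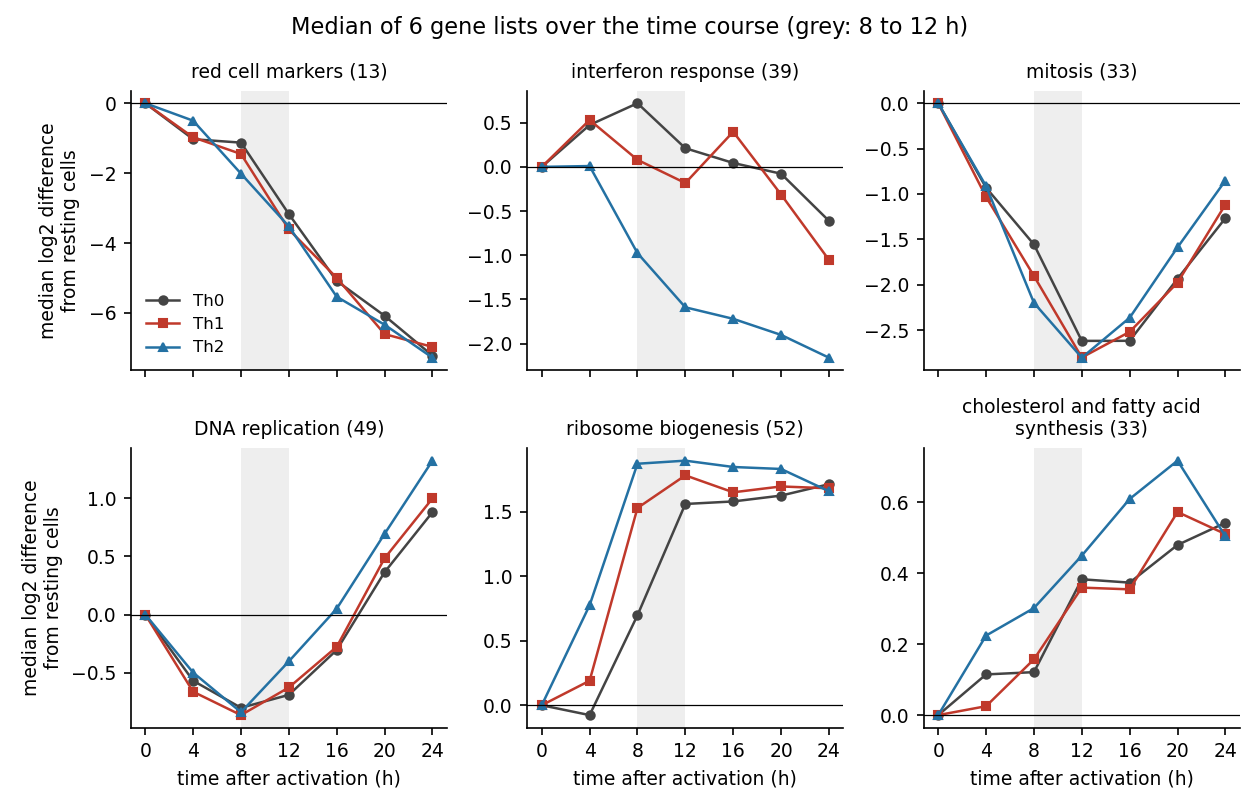
Median log2 difference from the mean of the resting libraries (vertical axis, a scale of its own in each panel) over time after activation for 6 lists in Th0, Th1 and Th2, with 8 to 12 h in grey. Mitosis genes reached their lowest medians (-2.62 to -2.81) at 12 h, replication genes had theirs at 8 h, and ribosome biogenesis in Th0 rose from 0.70 to 1.56.

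Loss of RNA was looked at in the 4 libraries of cells kept with actinomycin, which stops transcription, for 0, 1, 2 or 4 h after 16 h of stimulation. Slopes are relative to all RNA, whose median slope was 0.00 on the log2 scale per hour. Early response genes had a median slope of -0.25, helper cytokines of -0.24 and ribosome biogenesis genes of -0.13. The genes that passed as lower from 8 to 12 h had a median slope of 0.07 (quartiles -0.05 and 0.18, 547 genes) and those that passed as higher one of -0.03 (quartiles -0.12 and 0.06, 261 genes). The medians were 0.05 for the interferon list, -0.02 for mitosis and -0.01 for the red cell markers. They were -0.12 for quiescence and homing and -0.10 for the 6 NK and CD8 T-cell markers with a slope.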

How the data were processed

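RNA was measured by sequencing on an Illumina NextSeq 500 in 24 libraries, of which the 6 of 8 and 12 h were compared. The authors made RPKM values per gene and deposited them in 1 table, with BWA and GRCm38 named in the submitters' processing notes. Other tools and versions are not given in the sources used here. Mapped reads per library were recovered as whole numbers from the values, and reads per gene for 5761 of 16096 genes (35.8%, within 0.001 reads), too few for a count test. An entry without a gene name, with a sum of 0, was left out. Libraries were grouped by their labels. Intervals cover counting error only.

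Values were tested as log2(RPKM + 0.5) in limma 3.58.1 (R 4.3.3) with an intensity trend, on genes whose mean over the 6 libraries reached 1 RPKM, with Benjamini-Hochberg adjustment over all of them. Folds on this scale understate the change of low genes. The culture condition was a block, which leaves 2 residual degrees of freedom (prior 5.84). Deviations from the time means correlated within each pair (0.754 in Th0, 0.566 in Th1, 0.731 in Th2). Genes passed at an adjusted p under 0.05 and were called at a change of at least 2-fold in addition. The method was tested on simulated data, where it missed small changes and many changes of 2-fold, so a gene that did not pass may still have changed. Promoters came from RefSeq (GRCm38.p6) and gene coordinates from GENCODE.

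The comparison, the 37 gene lists and the genes were chosen with earlier results of these data known. Genes were named by a rule: the 12 largest rises and falls among the called genes, the 3 largest called members of each list in each direction (or its largest change where none was called), 16 genes given whatever their change, and the 5 with the widest range of steps. Further list members that passed, and those given as not having passed, were named after their values were seen. Alternatives covered the pseudocount, filter, scaling, trend, block, samples and fold limit. Python 3.11.15 with pandas 2.3.3 and scipy 1.17.1 made the summaries. Some genes that the rule would name are not reported here.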

Additional observations from a re-analysis of the deposited data

Results flagged for a closer look

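The 5 genes with the widest range of the step over the conditions, among those with a mean of at least 5 RPKM, rose in Th0 and fell in Th2 or did the reverse. With 1 library for each condition and time the difference was not tested. Sult2b1, a sulfotransferase gene, had a log2 step of 0.9654 in Th0 and -0.9678 in Th2, with 7.34, 17.1 and 26.4 RPKM in Th0, Th1 and Th2 at 8 h and 14.8, 12.2 and 13.3 RPKM at 12 h. Nr4a1 had steps of 0.8602 and -0.8121, and Nr4a2 of 1.1233 and -0.6289. Car12, a carbonic anhydrase gene, had steps of 1.383 and -0.3235, with 2.54, 6.01 and 10.7 RPKM at 8 h and 7.42, 8.11 and 8.43 RPKM at 12 h. In these 4 genes the 8 h values were lowest in Th0 and highest in Th2. Cep44, a centrosome gene, went the other way, with -0.4202 in Th0 and 1.334 in Th2, from 10.7, 8.69 and 5.16 RPKM to 7.9, 7.17 and 13.8 RPKM.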

How the results depend on the processing

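The pairing mattered most. With no replicate block, 20 genes were called in place of 161, 1 higher and 19 lower. With a mean of at least 5 RPKM 70 were called, 12 higher and 58 lower, of fewer genes tested. With no limit on the fold 878 passed, 261 higher and 617 lower. The count of rises was 30 at a pseudocount of 0.1, 12 at a pseudocount of 1 and 6 with no filter. Leaving out each pair gave 10 to 44 rises and 105 to 166 falls. The cause of these differences was not tested, apart from the fewer genes or samples that a setting holds. The other alternatives kept these 3 counts of called genes within 1.5 times, as did all those of the 1957 genes called from 4 to 16 h (1462 to 2190). Counts of list members that passed moved more. With no filter, falls went from 32 to 12 in the interferon list, from 22 to 5 in mitosis and from 12 to 5 in quiescence and homing, and rises from 7 to 0 in cholesterol synthesis, from 4 to 1 in DNA replication and from 2 to 0 in ribosome biogenesis. With no replicate block all of these were 0, and the red cell falls went from 12 to 4. With all 18 cultures the interferon falls went to 10, at a mean of at least 5 RPKM the mitosis falls went to 8, with no trend the rises in cholesterol synthesis went to 4, and with upper-quartile scaling those in ribosome biogenesis went to 5. Of 818 alternatives of 60 called genes none turned the direction and 124 lost the call, 48 of them with no replicate block.

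Direction turned in 12 alternatives of genes that had not passed. Irf8 was at -0.0311 after quantile normalization. With a pair left out, the lowest and highest log2 changes were -0.2482 and 0.2736 for Tbx21, -0.4354 and 0.2728 for Il4, -0.1328 and 0.2213 for Irf8, -0.4775 and 0.0443 for Ccne1, -0.0378 and 0.2974 for Odc1, and -0.0869 and 0.4552 for Ifitm2. They were -0.7172 and 0.2494 for Sult2b1, -0.3399 and 0.5371 for Cep44, -0.4307 and 0.4454 for Nr4a2, and -0.6164 and 0.2198 for Nr4a1.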
